A study of Mus musculus with 12 samples.

Results

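The germ cell competence genes examined here were Prdm1, Prdm14, Tfap2c, Nanos3, Dppa3, Dppa2, Dppa4, Dppa5a, Kit and Dnd1, 10 named genes of the 24736 in the expression table. They were listed by name for their place in early germ cells, with earlier results of these data known. Their messenger RNA was measured in 12 mouse embryonic stem cell cultures, 4 groups with 3 biological replicates each, all harvested at 72 h (day 3) of differentiation. All cultures were kept in bFGF at 10 ng/ml and in LGK974 at 5 µM, a porcupine inhibitor that stops the secretion of WNT ligands. Wild-type cells kept in these factors alone formed the EpiLC group, named for epiblast-like cells. Wild-type cells also given CHIR99021, which inhibits GSK3 and so activates WNT signalling, between day 2 and day 3 formed the CEpiLC group, named for caudal epiblast-like cells. The SOX2-OFF and SOX2-ON groups had the same exposure to CHIR99021 but came from the SOX2 TetON line. In that line, labelled Sox2-/-, the endogenous Sox2 had been ablated in a picked clone and a doxycycline-inducible Sox2 cDNA had been placed in the Hprt locus. All the cells, wild type included, descended from a parental line that carries the rtTA gene in Rosa26. SOX2-ON cultures stayed in doxycycline, at 1 µg/ml, and SOX2-OFF cultures had it withdrawn. SOX2-ON and SOX2-OFF thus differed in doxycycline as well as in SOX2, whereas in each comparison of either with wild type the clone differed too. No doxycycline is recorded for the wild-type cultures, so SOX2-ON differed from them in doxycycline as well. A SOX2 TetON culture without CHIR99021 was not analysed here.

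In the mouse embryo, primordial germ cells arise from the posterior epiblast when BMP and WNT signals act on cells that are competent to respond. PRDM1 and PRDM14, with PR domains, and TFAP2C, an AP-2 family factor, form the transcriptional core of that step, and the WNT-induced factor T (brachyury) can switch Prdm1 and Prdm14 on. DPPA3, DPPA2, DPPA4 and DPPA5A are proteins of pluripotent and early germ cells, while KIT is a receptor and NANOS3 and DND1 are RNA-binding proteins on which germ cell survival depends.

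Library totals ranged from 10408252 to 27337740 expected counts. Sox2, in TPM (transcripts scaled for gene length and library), ran from 119 to 171 in EpiLC and from 173 to 215 in SOX2-ON, against 7.78 to 13.7 in CEpiLC and 12.3 to 21.2 in SOX2-OFF, so that it was higher with doxycycline than without it in the TetON line. Sox2 RNA was also higher in SOX2-OFF than in CEpiLC (log2 0.65, edgeR adjusted p = 0.0367), against the direction of the label Sox2-/-, and the counts per gene do not separate the edited gene from the transgene. The EpiLC libraries carried the epiblast-like marker sum at 1600 to 1900 TPM, against 130 to 274 in the other groups, and T rose from at most 0.68 TPM in EpiLC to at least 474 in CEpiLC. Some 8 of the 10 competence genes passed the filter on low counts and were tested with edgeR's quasi-likelihood test, adjusted over 14196 genes. Calls were made where the adjusted p reached 0.05 or less. In these bulk samples a larger number of cells that express a gene and more RNA per cell cannot be told apart.

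Upstream sequence from RefSeq (GRCm38.p6) is shown for Prdm1, Kit and Nanos3, the 3 members found in the promoter table used. Prdm1 and Kit were called higher in SOX2-ON than in each other group, and Nanos3 had at most 7 counts in any library. Each runs 5′ to 3′ over the 250 bases before the annotated start, and capitals mark matches on either strand to GCCNNNGGC, the letters of an AP-2 site. The windows are chr10:44458749-44458998 on the minus strand for Prdm1, chr5:75574737-75574986 on the plus strand for Kit and chr8:84176553-84176802 on the minus strand for Nanos3. The Prdm1 window lies within the span of the gene, chr10:44437174-44528558, so it precedes an internal annotated start and not the outermost one.
Prdm1: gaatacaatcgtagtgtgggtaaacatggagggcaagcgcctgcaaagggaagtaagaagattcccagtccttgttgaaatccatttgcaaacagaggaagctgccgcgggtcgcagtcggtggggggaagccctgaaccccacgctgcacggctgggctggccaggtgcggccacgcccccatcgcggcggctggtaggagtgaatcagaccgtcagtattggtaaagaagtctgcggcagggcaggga
Kit: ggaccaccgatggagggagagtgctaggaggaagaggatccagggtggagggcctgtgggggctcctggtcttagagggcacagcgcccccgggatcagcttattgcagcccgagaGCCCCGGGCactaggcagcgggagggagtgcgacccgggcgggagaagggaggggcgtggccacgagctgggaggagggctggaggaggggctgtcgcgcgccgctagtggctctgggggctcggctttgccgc
Nanos3: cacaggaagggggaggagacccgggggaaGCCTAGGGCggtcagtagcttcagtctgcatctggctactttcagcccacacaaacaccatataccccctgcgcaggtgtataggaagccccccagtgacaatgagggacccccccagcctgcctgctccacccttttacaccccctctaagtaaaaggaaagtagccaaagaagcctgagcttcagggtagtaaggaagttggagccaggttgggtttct
The Kit window held 1 match, 125 bases before the start, and the Nanos3 window held 1 match, 212 bases before it. No match lay in the Prdm1 window. Of 32817 RefSeq promoter windows of this length, 13.7% held such a match. AACAAT, the core letters of a SOX site, and CTTTGAT or CTTTGAA, letters of a TCF/LEF site, were found in none of these 3 windows and in 9.42% and 7.48% of all windows. The Prdm1 and Kit windows held 15 and 17 CpG dinucleotides, against 3 in the Nanos3 window and a median of 6 over all windows.

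The 3 transcription factors of the core differed in level and in pattern. Tfap2c (chr2:172545678-172558622) stood at 1.05, 0.62 and 0.8 TPM in EpiLC and at 3.21, 2.4 and 2.03 TPM in CEpiLC. SOX2-OFF gave 4.93, 3.8 and 2.06 TPM, and SOX2-ON gave 26.0, 25.7 and 41.5 TPM. The SOX2-ON libraries thus stood far above the other 9, and CEpiLC and SOX2-OFF overlapped. Prdm1 (chr10:44437174-44528558), the repressor also called BLIMP1, was rare outside SOX2-ON. SOX2-ON libraries held 207, 214 and 268 counts of it, against 16 to 27 for SOX2-OFF, 10 to 16 for CEpiLC and 4 to 13 for EpiLC. The mean in SOX2-ON was 4.87 ± 0.888 TPM (SD, n = 3), against 0.52 ± 0.0265 for SOX2-OFF, 0.297 ± 0.159 for CEpiLC and 0.163 ± 0.0611 for EpiLC. Prdm14 (chr1:13113428-13127163), the other PR domain factor, did not follow them. CEpiLC libraries held 8, 7 and 7 counts of it, SOX2-ON libraries 5, 1 and 3, SOX2-OFF libraries 2, 1 and 1, and EpiLC libraries 2, 1 and 0. Every CEpiLC library was therefore above the other 9 libraries in counts, at levels too low for the filter.

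Among the DPPA genes, Dppa3 (also called Stella; chr6:122626424-122630271) spanned the widest fold range. In SOX2-ON it reached 117, 146 and 105 TPM. SOX2-OFF libraries stood at 7.23, 9.17 and 2.38 TPM, CEpiLC libraries at 4.77, 4.43 and 2.8 TPM, and EpiLC libraries at 2.49, 2.82 and 1.59 TPM. The SOX2-ON libraries lay apart from all others, whereas SOX2-OFF replicate 3, with 9 counts, fell among the wild-type values. Dppa2 (chr16:48310274-48319513) and Dppa4 (chr16:48283735-48294292) encode partners that act as a dimer, and the genes lie 15982 bases apart. Dppa2 was at 29.9, 32.9 and 41.6 TPM in SOX2-ON and between 6.63 and 15.4 TPM in the other 9 libraries, whose groups overlapped. Dppa4 was at 68.8, 65.3 and 79.0 TPM in SOX2-ON, above the EpiLC values of 32.6, 42.5 and 47.3, the CEpiLC values of 23.0, 33.7 and 28.9 and the SOX2-OFF values of 31.7, 28.0 and 35.9. The ratio of Dppa4 to Dppa2 in TPM lay between 3.58 and 6.41 among EpiLC libraries, between 1.88 and 3.34 among CEpiLC libraries, between 2.3 and 2.63 among SOX2-OFF libraries and between 1.9 and 2.3 among SOX2-ON libraries. Dppa5a (chr9:78367052-78368199), an RNA-binding KH domain protein, separated by cell line and not by SOX2. Wild-type cells gave 38.2, 41.9 and 47.4 TPM as EpiLC and 38.9, 40.1 and 51.7 TPM as CEpiLC, whereas the SOX2 TetON line gave 237, 282 and 212 TPM as SOX2-OFF and 239, 245 and 244 TPM as SOX2-ON. Its expected counts were within 0.01 of whole numbers, although Dppa5a has near-identical copies in the genome and reads shared with them remain uncertain.

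Of the genes for survival and migration, Kit (chr5:75574987-75656722), the receptor tyrosine kinase, was expressed in all groups. SOX2-ON libraries had 37.2, 47.0 and 40.2 TPM, CEpiLC libraries 23.5, 19.3 and 15.7, EpiLC libraries 12.9, 18.9 and 15.3, and SOX2-OFF libraries 12, 16.3 and 11.2. SOX2-ON stood apart, and the other groups overlapped with their neighbours in this order. Dnd1 (chromosome 18), which binds messenger RNA with NANOS proteins, was instead set apart in SOX2-OFF, at 2.63, 2.7 and 2.85 TPM. The remaining groups overlapped, with 7.41, 10.0 and 9.19 TPM for EpiLC, 5.21, 8.41 and 5.31 for CEpiLC and 9.33, 6.46 and 5.45 for SOX2-ON. Wdr55 overlaps Dnd1 on the opposite strand, and the counting used strand. Nanos3 (chr8:84173733-84176552) had 7, 3 and 3 counts in the SOX2-ON libraries, 4, 4 and 0 for SOX2-OFF, 1, 0 and 0 for CEpiLC and 0 in every EpiLC library, and it overlaps 2 microRNA genes on its own strand.

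**Figure D1:**
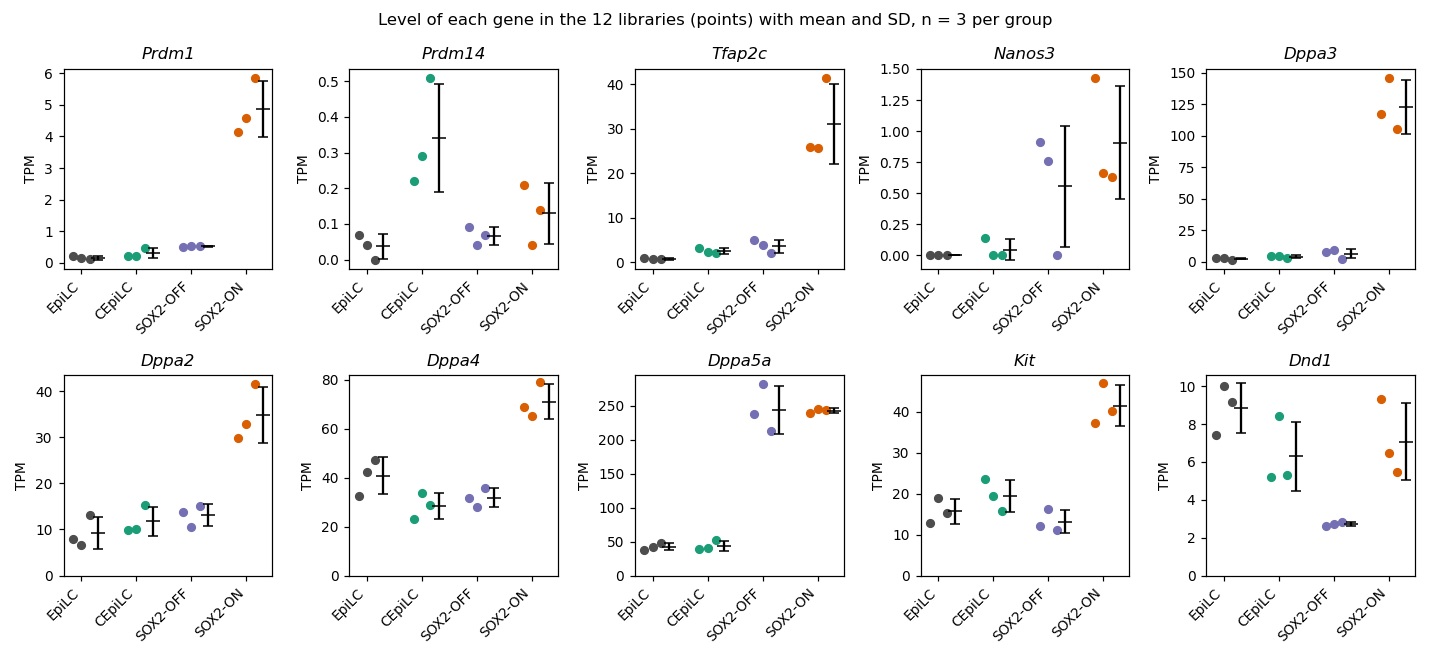
Level in TPM (vertical axis, from 0, a separate scale for each gene) of the 10 genes in each of the 12 libraries (points, by group), with the mean and SD of the 3 replicates beside them. SOX2-ON stands above the other groups for Prdm1, Tfap2c, Dppa3, Dppa2, Dppa4 and Kit, both SOX2 TetON groups are high for Dppa5a, and SOX2-OFF is low for Dnd1.

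Within the TetON line, 7 of the 8 tested genes were higher with sustained than with withdrawn SOX2 and none was lower, on edgeR's test (SOX2-ON against SOX2-OFF). Over all genes tested, 28.8% were called in this comparison and 14.8% were higher. The median log2 fold change of the 8 was 1.47, against -0.008 over all genes tested. Dppa3 changed most of the 8, being 17.9-fold higher (log2 4.16, SE 0.28, edgeR adjusted p = 4.26e-07), and was the 50th gene of 14196 when ordered by rise. Prdm1 followed with 3.17 on the log2 scale (SE 0.26, edgeR adjusted p = 2.6e-06) and Tfap2c with 3.02 (SE 0.26, edgeR adjusted p = 4.06e-06), as the 89th and 106th genes in that order. The other called genes moved less. Kit rose 3.02-fold (edgeR adjusted p = 1.85e-05), Dppa2 2.56-fold (0.000797), Dnd1 2.52-fold (0.00186) and Dppa4 2.16-fold (0.000146). For each of these 7 genes all 3 SOX2-ON libraries exceeded all 3 SOX2-OFF libraries in CPM (counts scaled to library size), which held in either direction for 43.8% of all genes tested. Dppa5a was the exception, with a log2 fold change of -0.07 and a 95% interval from -0.29 to 0.15 (edgeR adjusted p = 0.685). The 7 calls held in all 16 alternative analyses.

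Markers of other states moved alongside. The naive embryonic stem cell list (10 genes) summed to 213 to 277 TPM in SOX2-ON and 126 to 142 in SOX2-OFF, with 6 of its 10 genes higher, 0 lower and a median log2 fold change of 1.22. The endoderm list (10 genes, led by Cubn) summed to 85.8 to 224 TPM in SOX2-ON and 182 to 200 in SOX2-OFF. Of its 8 tested genes 1 was higher and 3 were lower, with a median log2 fold change of -0.96. Replicate 3 of SOX2-ON, the highest of its group in this list, was also the highest for Prdm1, Tfap2c, Dppa2 and Dppa4. Leaving that replicate out, the log2 fold changes were 3.02 for Prdm1, 2.77 for Tfap2c, 4.27 for Dppa3, 1.22 for Dppa2 and 1.04 for Dppa4, all still called. Feeder fibroblast, blood and endothelium, and trophoblast lists gave SOX2-ON sums of 33.2 to 51.9, 20.3 to 27.1 and 4.2 to 6.06 TPM beside SOX2-OFF sums of 26.1 to 50.6, 16.6 to 31.5 and 6.29 to 11.2, with Hba-x, Hbb-bh1, Tpbpa, Prl3d1 and Hsd3b6 at 0 in both groups. The part of these other states in the change of the competence genes was not tested.

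**Figure D2:**
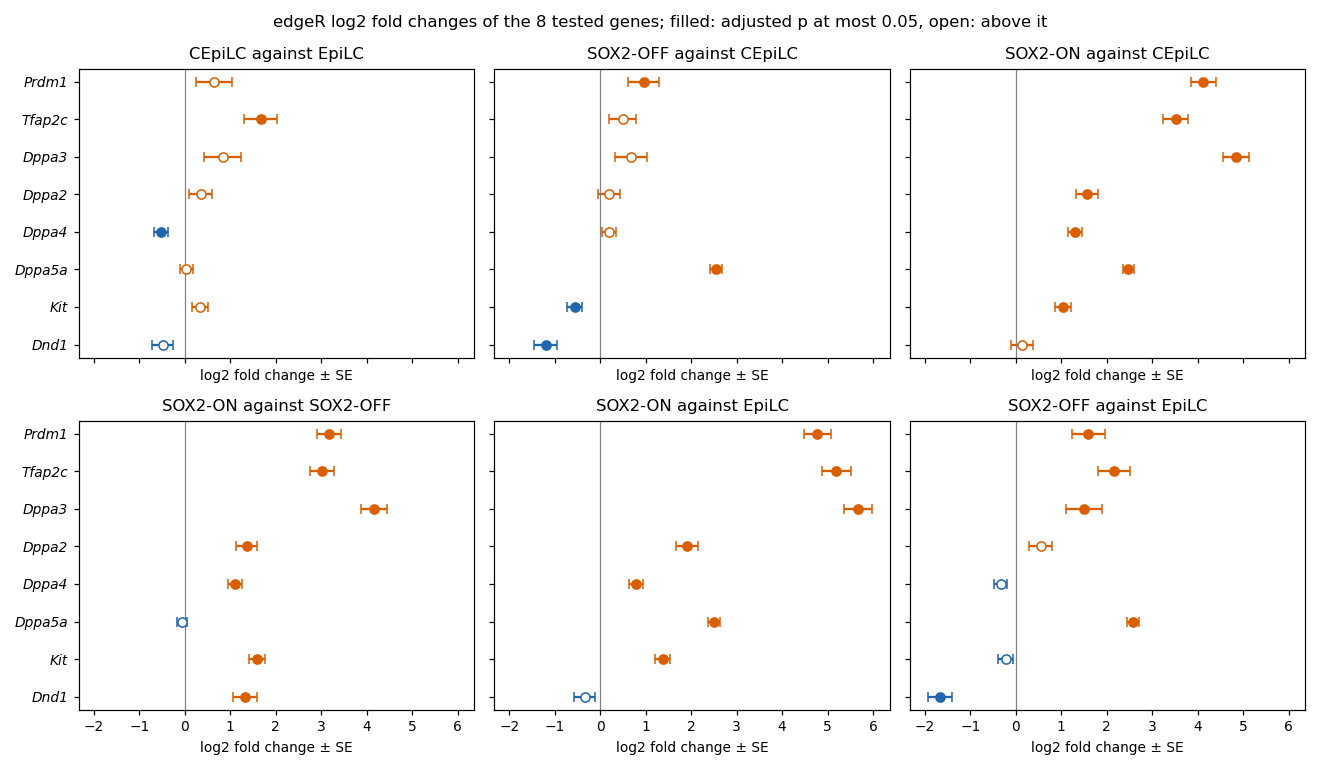
Log2 fold change ± SE from edgeR (horizontal axis) of the 8 tested genes in each of the 6 comparisons (panels), with filled points for an adjusted p of at most 0.05. In the panels with SOX2-ON, 7 of 8 genes are called higher, with Dppa5a the exception against SOX2-OFF and Dnd1 the exception against CEpiLC and EpiLC.

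Set against wild-type cells with the same CHIR99021 exposure, SOX2-ON again had 7 of the 8 genes higher and none lower, where 56.5% of all genes tested were called and 27.9% were higher. In these 7 genes the groups did not overlap in CPM, as was so for 59.9% of all genes. The SOX2-ON libraries are the same as in the comparison above, and the clone and doxycycline differed here as well as SOX2. Dppa3 rose 28.6-fold (log2 4.84, SE 0.29, edgeR adjusted p = 4.77e-08), Prdm1 17.5-fold (4.13, SE 0.28) and Tfap2c 11.4-fold (3.52, SE 0.27). The change of Dppa5a, 5.56-fold (log2 2.48, SE 0.13), was larger than those of Dppa2 (2.94-fold), Dppa4 (2.46-fold) and Kit (2.05-fold). Dnd1 did not pass the test, with a log2 fold change of 0.14, a 95% interval from -0.32 to 0.6 and an edgeR adjusted p of 0.641, and without replicate 1 of SOX2-ON it was at -0.13. Endoderm markers also rose in this comparison, with 7 of 8 tested genes higher and summed levels of 4.2 to 16.2 TPM in CEpiLC, and 9 of the 10 naive genes were higher.

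In SOX2-OFF against CEpiLC, which share CHIR99021 and differ in clone, and where Sox2 RNA was higher in the libraries labelled SOX2-OFF, 4 of the 8 genes changed, 2 in each direction. Over all genes tested 48.5% were called, 23.6% higher and 24.9% lower. Dppa5a rose 5.84-fold (log2 2.55, SE 0.13, edgeR adjusted p = 3.73e-08), and Dnd1 fell by 1.20 on the log2 scale (SE 0.26, edgeR adjusted p = 0.00209). These were the genes whose groups did not overlap in CPM, 2 of 8 against 55.3% of all genes. Prdm1 was higher by 0.96 on the log2 scale (SE 0.34, edgeR adjusted p = 0.0304) and Kit was lower (log2 -0.56, SE 0.17, edgeR adjusted p = 0.0162). Both calls depended on the libraries in the fit. That of Prdm1 was lost when the 6 libraries compared were fitted alone (edgeR adjusted p = 0.0755). It was also lost without replicate 1 or 2 of CEpiLC or without any replicate of SOX2-OFF (adjusted p = 0.132, 0.11, 0.0515, 0.077 and 0.0596), as was that of Kit without replicate 1 of CEpiLC or replicate 1 or 3 of SOX2-OFF (0.1, 0.0687 and 0.0633, all by edgeR). Dppa3, Tfap2c, Dppa2 and Dppa4 did not pass the test, with log2 fold changes of 0.68, 0.49, 0.20 and 0.19. Leaving out replicate 3 of SOX2-OFF, the library with few Dppa3 and Tfap2c counts, gave called log2 fold changes of 0.98 for Dppa3 (edgeR adjusted p = 0.00836) and 0.73 for Tfap2c (0.044). That library was the lowest of its group for both genes, so leaving it out must raise both values and gives no separate support. Of 16 alternatives, 2 called Dppa3 and 1 called Tfap2c. With all libraries the median of chromosome 6, that of Dppa3, was 0.51 in this comparison. Markers of other states differed in this comparison too. Of 8 tested endoderm genes 7 were higher (sums of 182 to 200 TPM against 4.2 to 16.2), as were 6 of 10 naive genes, with 1 lower, and 3 of 4 tested trophoblast genes (6.29 to 11.2 TPM against 1.88 to 2.22). Of 7 tested blood and endothelium genes 4 were lower and 1 higher (16.6 to 31.5 TPM against 40.5 to 45.3), and of 10 feeder fibroblast genes 2 were higher and 2 lower. The part of these markers in the changes was not tested.

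Exposure of wild-type cells to CHIR99021 (CEpiLC against EpiLC) changed 2 of the 8 genes, where 42.2% of all genes tested were called, 22.1% higher and 20.1% lower. Tfap2c rose 3.18-fold (log2 1.67, SE 0.36, edgeR adjusted p = 0.00222). Dppa4 was lower (log2 -0.52, SE 0.16, edgeR adjusted p = 0.0168), a call lost without replicate 2 or 3 of EpiLC or replicate 1 of CEpiLC (adjusted p = 0.0554, 0.0715 and 0.0752). Dppa3, with a log2 fold change of 0.83 (edgeR adjusted p = 0.119), had all CEpiLC libraries above EpiLC in CPM but not in TPM. It and Tfap2c were the 2 of 8 genes whose groups did not overlap in CPM, against 52.3% of all genes. With the replicate number as a block, which pairs these groups by their values, 4 of 8 genes were called, beside 6491 of all 14196 genes tested. Among the 4 were Dppa3 at 0.82 (edgeR adjusted p = 0.0433) and Dppa2 at 0.37 (0.0437). Prdm1 (0.64), Kit (0.33), Dppa5a (0.03) and Dnd1 (-0.48) did not pass the test in either fit. T, which can drive Prdm1 and Prdm14, rose in the same comparison by a log2 fold change of 10.29. Its part in the levels of these genes was not tested.

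Against EpiLC, the groups of the SOX2 TetON line differed in both clone and CHIR99021, and SOX2-ON differed in doxycycline too. SOX2-ON had 7 of 8 genes higher than EpiLC at a background of 59.8% called (30.7% higher and 29.1% lower) and 66.1% with groups that did not overlap in CPM, with Dppa3 50.7-fold, Tfap2c 36.4-fold and Prdm1 27.3-fold higher, and Dnd1 not passing at a log2 fold change of -0.34. SOX2-OFF had 4 genes higher and 1 lower at a background of 62.1% called (31.5% higher and 30.6% lower), namely Tfap2c (4.48-fold), Prdm1 (3.03-fold), Dppa3 (2.83-fold), Dppa5a (5.97-fold) and Dnd1, which fell by 1.67 on the log2 scale. The groups did not overlap in CPM for 4 of the 8, against 69.2% of all genes, and overlapped for Dppa3 among those called. Dppa4 was therefore higher than EpiLC in SOX2-ON, by 0.78 on the log2 scale (SE 0.15, edgeR adjusted p = 0.000561), and was at -0.33 in SOX2-OFF, where it did not pass the test (0.081).

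The order of the groups was not the same for every gene. Prdm1, Tfap2c, Dppa3 and Dppa2 all ran from SOX2-ON through SOX2-OFF and CEpiLC to EpiLC. Among their lower neighbours, the steps that passed edgeR's test were those from SOX2-OFF to CEpiLC for Prdm1 and from CEpiLC to EpiLC for Tfap2c. Kit ran from SOX2-ON through CEpiLC and EpiLC to SOX2-OFF, and its lower 3 groups did not differ between neighbours beyond their spread. For Dnd1 the test separated CEpiLC from SOX2-OFF at the bottom of the order and no other neighbours. Dppa4 ran from SOX2-ON through EpiLC and SOX2-OFF to CEpiLC, with only the first step past the test. Dppa5a ran from SOX2-OFF through SOX2-ON and CEpiLC to EpiLC, and its step between the lines passed.

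Dppa3 and Kit lie on chromosomes 6 and 5, and the chromosome has to be read beside them. The 685 tested genes of chromosome 6 had a median log2 fold change of 0.51 in SOX2-OFF against CEpiLC and 0.55 in SOX2-ON against CEpiLC, but 0 in SOX2-ON against SOX2-OFF, so that this chromosome stood higher as a whole in the SOX2 TetON line. Less this median, the log2 fold change of Dppa3 was 0.16 in SOX2-OFF against CEpiLC and 4.29 in SOX2-ON against CEpiLC. Its call in SOX2-OFF against EpiLC was lost when the shift was removed from the fit (log2 0.92, edgeR adjusted p = 0.0564). On chromosome 5, the median of 884 tested genes was -0.03 in both comparisons of the line with CEpiLC, and Kit less this median was at -0.52 for SOX2-OFF and 1.07 for SOX2-ON. The chromosomes of the other tested members had medians between -0.04 and 0.06 in these comparisons and in CEpiLC against EpiLC. Chromosome 8, that of the untested Nanos3, also stood higher in the line. Its medians were 0.59 in SOX2-OFF and 0.58 in SOX2-ON against CEpiLC, and 0 in SOX2-ON against SOX2-OFF.

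**Figure D3:**
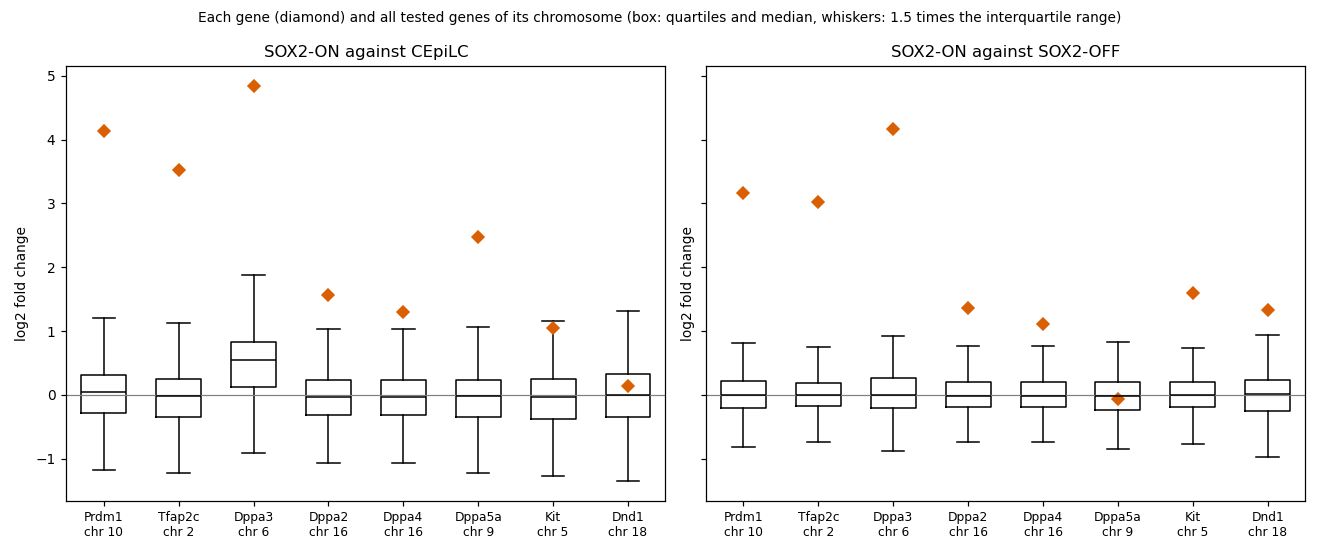
Log2 fold change (vertical axis) of each tested gene (diamond) and of all tested genes of its chromosome (box with quartiles and median, whiskers to 1.5 times the interquartile range), in SOX2-ON against CEpiLC (left) and against SOX2-OFF (right). The box of chromosome 6, that of Dppa3, sits higher in the left panel, with a median of 0.55, and at 0 in the right panel, and Dppa3 lies far above it in both.

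The nearest tested gene on each side was also read, giving 14 neighbours that are not members. Of these, 5 were higher and 1 was lower in SOX2-ON against SOX2-OFF, where 14.8% of all genes tested were higher and 14.1% lower. The median log2 fold change of the 14 was 0.35. The lower gene was Cass4, on 1 side of Tfap2c (log2 -1.09, edgeR adjusted p = 0.0167). Bmp7, on the other side of Tfap2c, was at -0.07 and did not pass the test (0.724). Gdf3, which encodes a TGF-beta family ligand and lies 16337 bases before Dppa3, rose by 4.27 on the log2 scale (edgeR adjusted p = 3.79e-08), close to the 4.16 of Dppa3 itself. Nanog, a core pluripotency factor 77218 bases after Dppa3, was at a log2 fold change of 0.86 and did not pass the test (0.157). Morc1, a gene of the male germ line 111724 bases after Dppa2, was higher by 2.58 on the log2 scale in SOX2-ON against SOX2-OFF (edgeR adjusted p = 0.000639) and fell by 1.76 on it in SOX2-OFF against CEpiLC (0.00644). Kit lies between the receptor genes Pdgfra, at a log2 fold change of -0.64 and not called, and Kdr, at 1.19 (edgeR adjusted p = 0.0322) in SOX2-ON against SOX2-OFF. By contrast Hars, which lies 314 bases from Dnd1, was at a log2 fold change of -0.11 (0.224), and the neighbours of Prdm1, Atg5 and Prep, were at 0.15 and -0.05 and were not called.

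Across the 12 libraries the log2 CPM of Prdm1, Tfap2c and Dppa3 moved together, with Pearson r of 0.95 for Prdm1 and Tfap2c, 0.95 for Prdm1 and Dppa3 and 0.96 for Tfap2c and Dppa3. These 12 points fall into 4 groups, so that the values describe the groups more than the libraries. Dppa5a and Dnd1 were related inversely, at -0.59, and Dnd1 was near 0 with Dppa3 (0.05). The gene most like Dppa3 over the 12 libraries was Cdk14 (0.988), and that most like Prdm1 was Fam196a (0.986). Drosha was most like Tfap2c (0.986), En2 most like Dppa2 (0.977), Mettl3 most like Dppa4 (0.951), Sox6 most like Kit (0.955) and Aldh1b1 most like Dnd1 (0.951). Next came Fam163a (0.981) and Frk (0.979) for Prdm1, Secisbp2l (0.979) and Zfp532 (0.976) for Tfap2c, and Pik3cb (0.983) and Nus1 (0.982) for Dppa3. Frmd6 (0.969) and Ccdc141 (0.964) were next for Dppa2, Sema4b (0.934) and AI593442 (0.932) for Dppa4, Necab1 (0.951) and Megf9 (0.945) for Kit, and Npr3 (0.945) and Jph3 (0.942) for Dnd1. For Dppa5a the 3 leading genes were Fam3c (0.995), Cdkn2a (0.994) and Wbp11 (0.994), of which Fam3c and Wbp11 lie on chromosome 6. Pearson r takes no account of the size of a change. In SOX2-ON against SOX2-OFF, Cdk14, Fam196a, Drosha and En2 were at log2 1.21, 2.41, 0.23 and 2.27. Dppa3, Prdm1, Tfap2c and Dppa2 were at 4.16, 3.17, 3.02 and 1.36. Mettl3, Sox6, Aldh1b1 and Fam3c were at 0.45, 3.54, 1.82 and 0. Dppa4, Kit, Dnd1 and Dppa5a were at 1.11, 1.59, 1.33 and -0.07.

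Prdm14 and Nanos3, too rare for the filter, were read as sums of counts. Summed over a group, Prdm14 had 22 counts in CEpiLC, or 0.39 CPM with an exact 95% Poisson interval of 0.244 to 0.59, which covers counting error only. The corresponding values were 0.056 (0.0116 to 0.164) in EpiLC, 0.0856 (0.0233 to 0.219) in SOX2-OFF and 0.166 (0.0761 to 0.316) in SOX2-ON. When no filter on low counts was applied, edgeR called Prdm14 higher in CEpiLC than in EpiLC (log2 2.71, adjusted p = 0.013) and lower in SOX2-OFF than in CEpiLC (log2 -2.12, adjusted p = 0.0342), and the difference of SOX2-ON from CEpiLC did not pass (log2 -1.24, 0.135). Nanos3 gave 0.171 CPM (0.0739 to 0.337) in SOX2-OFF and 0.24 (0.128 to 0.411) in SOX2-ON. In EpiLC it had 0 counts, for which the exact interval reaches 0.0689 CPM and a floor of 3 counts over the group is 0.056 CPM, and in CEpiLC it had 1 count. The unfiltered edgeR fit called it higher in SOX2-ON than in CEpiLC (adjusted p = 0.0244) and in both groups of the line than in EpiLC (0.00785 and 0.0204), whereas SOX2-ON against SOX2-OFF did not pass (0.738). Nanos3 lies on chromosome 8, whose tested genes had a median log2 fold change of 0.58 in SOX2-ON against CEpiLC. Against EpiLC the medians were 0.6 for SOX2-ON and 0.59 for SOX2-OFF, and this shift was not removed from the unfiltered fit.

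The signals that induce germ cells were listed as 12 genes of BMP, WNT, KIT and chemokine signalling. In CEpiLC against EpiLC, 8 of these 12 rose and 1 fell, where 22.1% of all genes tested rose and 20.1% fell. Among the risers were Wnt3 (log2 4.03), the ligand that makes the epiblast responsive, Bmp2 (2.48) and Kitl (1.94), the ligand of KIT. In SOX2-ON against SOX2-OFF, 2 rose and 2 fell, shares close to the 14.8% and 14.1% of all genes tested. On the log2 scale Wnt3 was at -2.02 and Smad1, a BMP signal transducer, at -0.81. Kitl and Kit did not move together in every comparison. CEpiLC libraries held 15.6 to 32.4 TPM of the ligand, SOX2-ON libraries 6.67 to 10.5 and SOX2-OFF libraries 4.18 to 4.79, so that in SOX2-ON against CEpiLC the ligand was lower (log2 -1.39, edgeR adjusted p = 0.00105) where the receptor was higher (log2 1.04, 0.000146). In SOX2-OFF against CEpiLC both were lower, at log2 fold changes of -2.29 for Kitl and -0.56 for Kit.

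Early factors and markers were more divided. Of 13 genes, 5 rose and 3 fell in SOX2-ON against SOX2-OFF, where 14.8% of all genes tested rose and 14.1% fell. The median log2 fold change of the 13 was 0.27. On that scale Tcl1, a cofactor of AKT in pluripotent cells, rose by 2.53 and Otx2, known as a barrier to germ cell entry, by 1.44, while T fell by 2.47 and the membrane proteins Ifitm3 (also called Fragilis) by 1.54 and Ifitm1 by 1.03. T was at 138 to 172 TPM in SOX2-ON against 792 to 830 in SOX2-OFF, and its part in the levels of Prdm1 and Tfap2c was not tested. The mean of Otx2 was 165 ± 11.4 TPM (SD, n = 3) for EpiLC, 13.3 ± 1.18 for SOX2-ON, 4.84 ± 0.816 for SOX2-OFF and 2.62 ± 1.36 for CEpiLC. Tcl1 passed the filter only through SOX2-ON, and among the other 12 genes 4 rose and 3 fell. Nanog rose by 2.51 on the log2 scale in SOX2-ON against CEpiLC, where the clone differs and the median of its chromosome 6 was 0.55. In SOX2-ON against SOX2-OFF it was at 0.86 and did not pass the test (edgeR adjusted p = 0.157).

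Genes of later germ cells were listed as 20, of which 14 were tested. In SOX2-ON against SOX2-OFF, 7 rose, 1 fell and 6 did not pass, with a median log2 fold change of 1.06 against -0.008 over all genes tested. Of all genes tested, 14.8% rose and 14.1% fell in this comparison. Dazl and Sycp1 passed the filter on low counts only through SOX2-ON, which favours a rise, and among the other 12 genes 6 rose and 1 fell. On the log2 scale Dazl, an RNA-binding protein of germ cells, rose by 2.17, the sex determination factor Dmrt1 by 1.81, the PIWI protein gene Piwil2 by 1.62 and Stk31 by 1.51. Their levels stayed low, with Dazl at 0.95 to 1.66 TPM in SOX2-ON. Dmrt1 was at 1.42 to 1.73 TPM in SOX2-ON and at 1.69 to 2.76 in EpiLC. Summed over the list, the level was highest in EpiLC, at 103 to 128 TPM and led by Sycp3, against 61.3 to 71.8 in SOX2-ON. In SOX2-ON against EpiLC, 8 of the 14 tested genes were higher and 2 lower, where 30.7% of all genes were higher. Ddx4, the helicase also called Vasa, rose between CEpiLC and SOX2-OFF (log2 0.88) and was at 22.5 to 23.3 TPM in SOX2-ON. Sycp3, of the synaptonemal complex, fell by 0.87 on the log2 scale in SOX2-ON against SOX2-OFF. Nanos2 and Asz1 were at 0 counts in all 12 libraries.

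**Figure D4:**
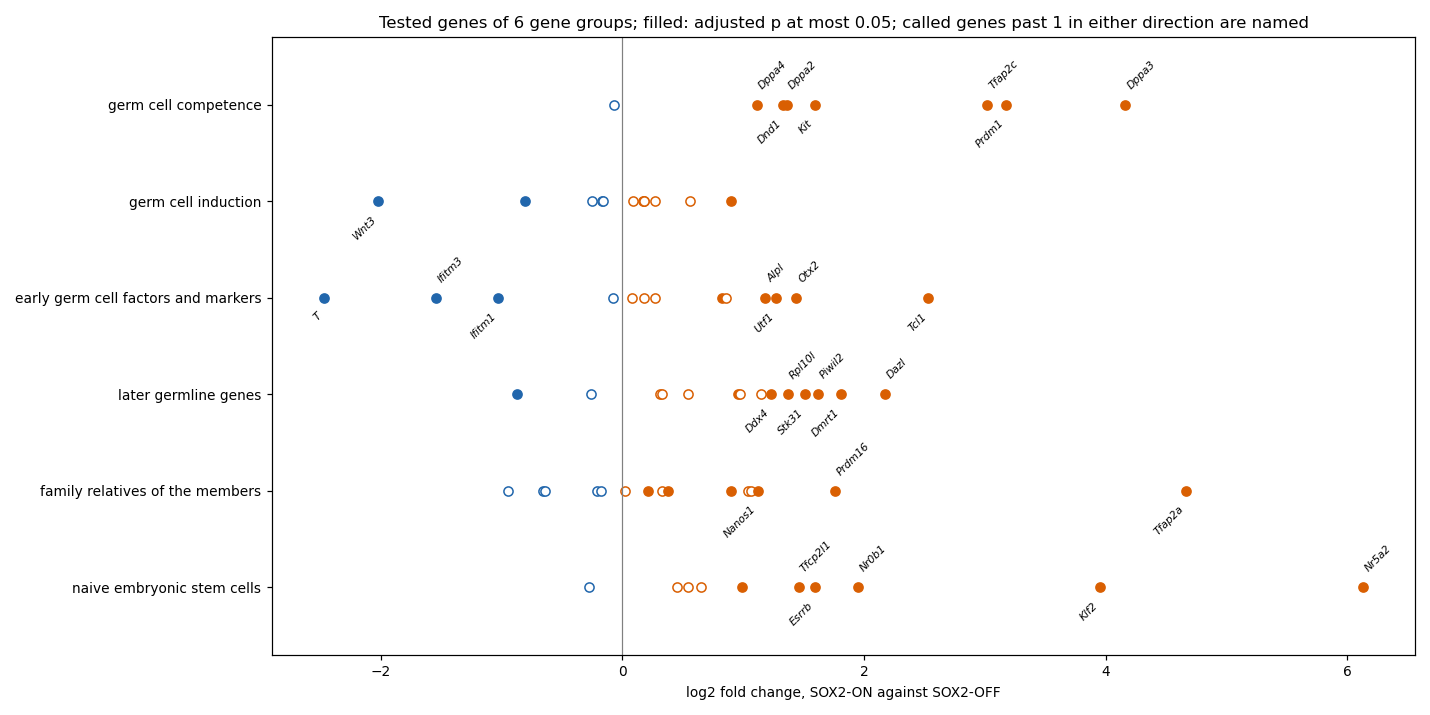
Log2 fold change in SOX2-ON against SOX2-OFF (horizontal axis) of the tested genes of 6 gene groups (rows), with filled points for an adjusted p of at most 0.05 by edgeR. In the top row 7 of 8 competence genes are higher, in the row of later germline genes 7 of 14 are higher and 1 is lower, and in the row of early factors 5 of 13 are higher and 3 lower. Dazl, Sycp1 and Tcl1 passed the filter only through SOX2-ON. Without them 6 of 12 later germline genes are higher and 1 lower, and 4 of 12 early factors are higher and 3 lower. Of all genes tested, 14.8% are higher and 14.1% lower.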

How the data were processed

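Polyadenylated RNA of the 12 cultures was sequenced as strand-specific 76 bp single-end reads. The authors trimmed them with cutadapt 1.16, aligned them with STAR 2.5.2a and quantified mm10 RefSeq genes with RSEM 1.3.0. The deposited expected counts, RSEM's estimates of reads per gene, were rounded for testing, and the deposited TPM values, scaled by the authors for gene length and depth, were used only to show levels. Replicates were not pooled.

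Of 24736 genes, 14196 passed filterByExpr and were tested with edgeR 4.0.16 (R 4.3.3, limma 3.58.1), with TMM scaling (factors 0.97 to 1.02), 1 quasi-likelihood fit of all 12 libraries, no covariates and Benjamini-Hochberg adjustment. The study used DESeq2, run here as an alternative (1.42.0). The edgeR test was checked on simulated counts. Overlap of groups was read in CPM. Totals of 10408252 to 27337740 limit the precision of genes with few counts, and the Poisson intervals of Prdm14 and Nanos3 cover counting error only. The replicates are labelled biological, and the spread between them is that of these cultures. Chromosome medians and neighbours used RefSeq positions in GRCm38.p6 (mm10), matched for 99.8% of tested genes. All 10 competence genes are named in every case, as are list genes among the 4 most changed called in a direction of a comparison, and the 3 genes most like each by Pearson r of log2 CPM. The rule for neighbours was added after the first results. Members and lists were chosen with earlier results of these data known. Pairing by replicate number was accepted for EpiLC with CEpiLC, where each number's deviations from the 2 means correlated across genes by over 0.1 (0.12, 0.132 and 0.103); no label states it. Alternatives were RLE scaling, library totals alone, 2 other filters, DESeq2, limma-voom, the 6 libraries compared alone, the replicate block, a threshold of 0.01, removal of chromosome shifts, and leaving out each library.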

Additional observations from a re-analysis of the deposited data

How the results depend on the processing

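The calls of 7 genes in each of the 3 comparisons with SOX2-ON held under all 16 alternatives, DESeq2 and limma-voom included, and Dnd1 against EpiLC joined them as a lower gene without replicate 1 of SOX2-ON. Leaving out each library in turn gave 1 to 3 genes called in CEpiLC against EpiLC, 2 to 4 in SOX2-OFF against CEpiLC, 7 to 7 in SOX2-ON against CEpiLC and against SOX2-OFF, 7 to 8 in SOX2-ON against EpiLC and 5 to 6 in SOX2-OFF against EpiLC. Over all 14378 to 14444 genes tested, these fits called 4828 to 5447 in CEpiLC against EpiLC and 5947 to 6650 in SOX2-OFF against CEpiLC. They called 7232 to 7583 in SOX2-ON against CEpiLC, 3054 to 3923 against SOX2-OFF and 7689 to 8016 against EpiLC. In SOX2-OFF against EpiLC they called 8026 to 8264. With the replicate block, put on all 12 libraries in 1 fit, 4 genes were called in CEpiLC against EpiLC and 5 in SOX2-OFF against CEpiLC. It called 7 in SOX2-OFF against EpiLC and 7 in the others. Outside CEpiLC against EpiLC pairing was not accepted, because not every replicate number had a correlation over 0.1. In SOX2-OFF against CEpiLC, for example, the values were 0.053, 0.179 and 0.173. No label states whether these samples are paired. Of all 14196 genes, the block fit called 6491 in CEpiLC against EpiLC, 7285 in SOX2-OFF against CEpiLC and 9143 in SOX2-OFF against EpiLC. It called 8390 in SOX2-ON against CEpiLC, 4625 against SOX2-OFF and 8837 against EpiLC. An adjusted p of at most 0.01 left 1 gene in CEpiLC against EpiLC and 2 in SOX2-OFF against CEpiLC, beside 3968 and 5008 of all 14196 genes. The sign turned for uncalled values only, namely Dppa5a in CEpiLC against EpiLC (-0.0012 with limma-voom, and -0.1 to 0.1 on leaving out libraries, with -0.0424 without replicate 1 of EpiLC and the lowest without replicate 3 of CEpiLC), Dppa5a in SOX2-ON against SOX2-OFF (-0.14 to 0.0454, the highest without replicate 2 of SOX2-OFF) and Dnd1 in SOX2-ON against CEpiLC (-0.13 to 0.39, the lowest without replicate 1 of SOX2-ON), and the cause was not tested. Depth limits Prdm14 and Nanos3, with at most 8 counts per library, and Prdm1 outside SOX2-ON.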

Other observations

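Among 19 family relatives of the competence genes, 15 were tested, and in SOX2-ON against SOX2-OFF 6 rose, 0 fell and 9 did not pass edgeR's test, with a median log2 fold change of 0.33. Of all genes tested, 14.8% rose and 14.1% fell in this comparison. Tfap2a, the AP-2 factor of ectoderm and neural crest, rose by 4.66 on the log2 scale (edgeR adjusted p = 2.8e-07), more than Tfap2c in the same comparison. SOX2-ON libraries held 17.3, 20.5 and 23.8 TPM, SOX2-OFF libraries 0.55, 1.03 and 0.76, CEpiLC libraries 0.15, 0.29 and 0.06 and EpiLC libraries 0.32, 0.06 and 0.09, and the SOX2-ON libraries stood apart from the other 9. Prdm16, a PR domain regulator of brown fat and stem cells, rose by 1.76 on that scale (0.00262) at 0.3 to 0.38 TPM, and Nanos1, a NANOS relative of somatic and neural tissue, by 1.12 (7.37e-05). Tfap2b and Tfap2d had mean levels of at most 0.12 TPM in every group and were not tested.

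Of the naive embryonic stem cell genes, the nuclear receptor gene Nr5a2 was at 23.6 to 32.5 TPM in SOX2-ON and at 0.34 to 0.41 in SOX2-OFF, a log2 fold change of 6.13 (edgeR adjusted p = 1.37e-08), and the Krüppel-like factor gene Klf2 rose by 3.95 on the log2 scale (9.15e-06).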
